A study of Mus musculus with 6 samples.

Results

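The autophagy and mitophagy genes are a set of 40 listed mouse genes, chosen by name as rows of the expression table whose Entrez identifier maps to a listed symbol. A row was found for 37 of them among 16492 gene probe sets, and Bnip3, Atg14 and Atg4a had none. Autophagy wraps cytoplasm in a double membrane, the autophagosome, and delivers it to lysosomes for digestion, and mitophagy is the same route taken by mitochondria. In skeletal muscle the route clears damaged proteins and organelles, is induced by fasting and denervation, and is controlled by the kinases mTOR and AMPK and by the transcription factors of the FoxO and TFEB families.

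Messenger RNA was measured with Affymetrix arrays, 1 per mouse, in the quadriceps muscle of 3 mice heterozygous for nebulin (nebulin +/-, a single allele left) and 3 wild-type mice (nebulin +/+, both alleles). All 6 mice were untreated, and each sample is a separate animal. The study calls the mutants heterozygous nebulin knock-out mice, and the sources used here do not give the way the allele was inactivated, the strain, the age or the sex. Nebulin is a giant protein of the muscle thin filament, and loss of its function is a cause of nemaline myopathy, so the comparison asks what losing 1 copy changes in muscle RNA.

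The deposited values were log2 signals between 5.56 and 14.81, with the same distribution on every array. The 10 defining muscle markers were bright, with means from 12.63 to 14.81. Heterozygous mouse 1 stood apart from the other 5 on the second principal component (16.1% of the variance), so calls that change without it are also given without it. The first component (53.3%) separated the genotypes. An adjusted p under 0.05 (limma) was reached by 359 of the 11544 probe sets in the test, or 3.11% (1.53% higher and 1.58% lower in heterozygous muscle). Slow fibre markers moved with genotype: 6 of 8 rose, and their summed linear signal was 23156 to 28623 in heterozygous mice against 8896 to 12607 in wild-type mice. The 4 with the smallest p were Tnnt1, Tnni1, Tnnc1 and Myh7. They were higher by 2.37, 2.40, 2.43 and 3.00 on the log2 scale (limma, adjusted p = 0.00145, 0.00145, 0.00346 and 0.0104). All 4 passed in each of the 6 fits that left out a mouse. Myl2 lost its call in 4 of the 6 fits that left out a mouse, and 5 of the 8 rose in each of these. Its adjusted p (limma) there ran from 0.0503 without heterozygous mouse 1 to 0.111 without heterozygous mouse 3. With the replicate number as a block 7 of the 8 rose, Atp2a2 being added (log2 difference 0.82, limma, adjusted p = 0.0127). None of 13 macrophage and leukocyte markers passed (limma), and 0 had an unadjusted p under 0.05, against 20.5% of all probe sets. There were 9 negative and 4 positive differences, and the markers' summed signals were 5086 to 5338 in heterozygous mice and 4805 to 6027 in wild-type mice. Without wild-type mouse 3, Lyz2 and C1qb of these passed as lower, by 0.39 and 0.31 on the log2 scale (limma, adjusted p = 0.0186 and 0.0329). Of 9 endothelial markers Egfl7 fell (limma, 11.1% called, against 3.11% of all probe sets), and 7 differences were negative. An unadjusted p under 0.05 was reached by 4 of them, or 44.4%, against 20.5% of all probe sets. The sums were 2741 to 3118 in heterozygous mice against 3068 to 3347 in wild-type mice. The call of Egfl7 was lost in 5 of the 6 fits that left out a mouse (adjusted p up to 0.0910). Without heterozygous mouse 1, Egfl7 passed together with Kdr and Tek (limma, adjusted p = 0.0258 for Kdr and 0.0460 for Tek). Kdr also passed with the replicate number as a block and with array weights (limma, adjusted p = 0.0174 and 0.0402). No marker passed among 7 of fibroblasts, 6 of adipocytes, 4 of Schwann cells and nerve and 1 of red cells (limma). At an unadjusted p under 0.05 there were 2, 3, 2 and 0, or 28.6%, 50%, 50% and 0%, against 20.5% of all probe sets. Positive and negative differences numbered 5 and 2 for fibroblasts and 4 and 2 for adipocytes. For Schwann cells and nerve they numbered 4 and 0, and for red cells 1 and 0. With the block, Col1a2 of fibroblasts (log2 difference 0.61) and Fabp4 of adipocytes (-0.22) passed (adjusted p = 0.0475 and 0.0364), and without heterozygous mouse 1 the adipocyte gene Lep did (0.31, adjusted p = 0.0347). The part of these cell and fibre markers in the values below was not tested, and in whole muscle fewer cells of a type and less RNA per cell cannot be told apart.

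No autophagy or mitophagy gene passed the test. All 37 were bright enough to be tested, and none had an adjusted p under 0.05 (limma), against 3.11% of all probe sets tested. The smallest adjusted p was 0.0662, for Map1lc3a. At an unadjusted p under 0.05 there were 9 members, 3 higher and 6 lower, or 24.3%, against 20.5% of all probe sets. The genotypes did not overlap at 9 members (24.3%), 4 higher and 5 lower in heterozygous muscle, against 26.3% of all probe sets. Both shares lie near the background.

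The differences were also small. They ran from -0.19 for Ctsd to 0.21 for Map1lc3a on the log2 scale, heterozygous minus wild type, and 27 of the 37 were under 0.1 in size (73.0%, against 75.2% of all probe sets tested). The median difference was -0.02, against 0.00 over all probe sets tested. Negative differences made up 24 of 37, or 64.9%, against 50.6%. The 95% confidence intervals of all 37 members lay between -0.31 and 0.32, so a change of more than 1.25-fold in either direction was outside the interval of each. Replicate spread was slightly wider than elsewhere on the arrays: the pooled SD within genotypes had a median of 0.064 for the members and 0.055 for all probe sets tested. It was lowest for Atg7 (0.025), the E1 enzyme of the conjugation systems, and highest for Atg4c (0.097), an LC3 protease. No member was tied across arrays, and member means lay between 7.31 and 12.16.

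**Figure D1:**
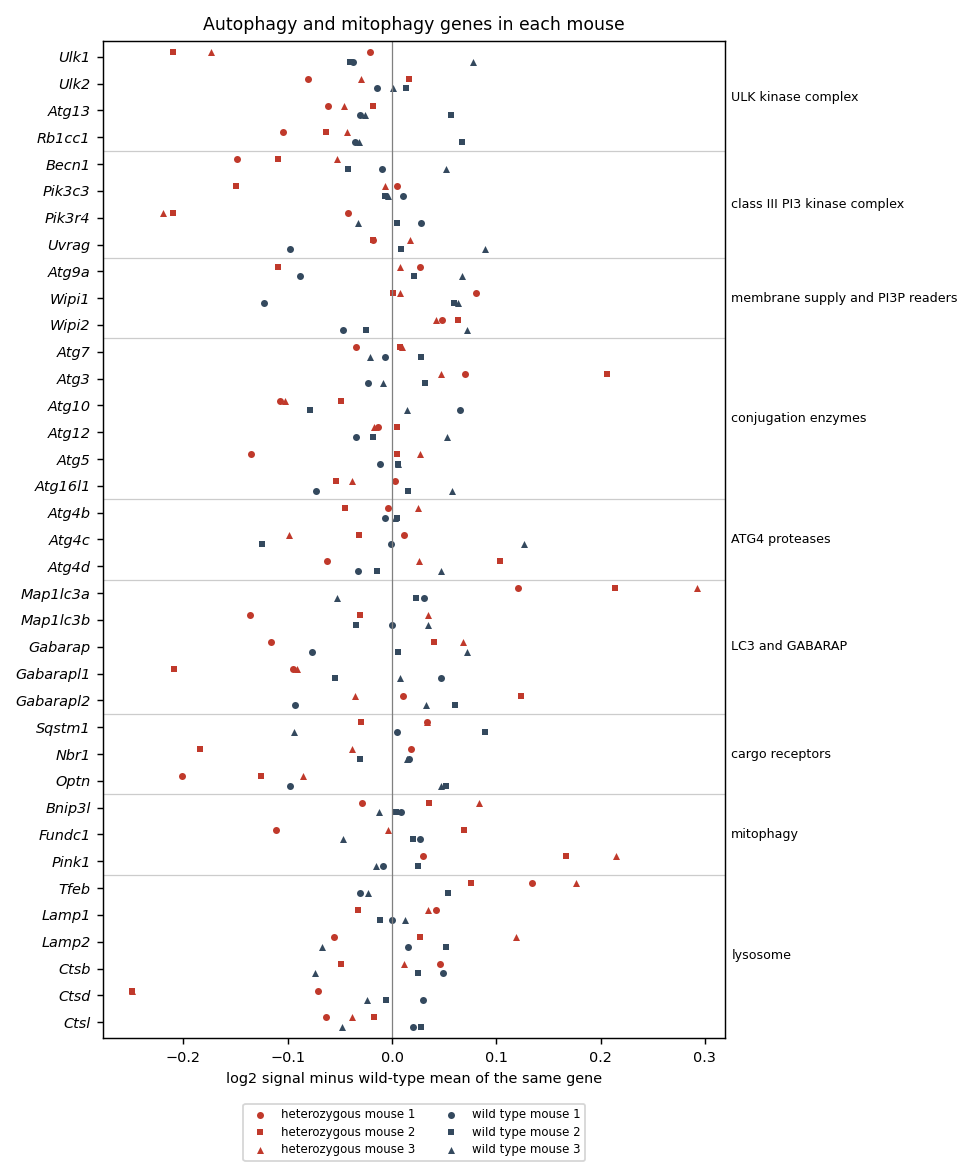
Log2 signal of each of the 37 genes in each mouse, minus the wild-type mean of that gene (x axis), with the genes grouped by role down the page; red points are heterozygous mice and dark points wild-type mice. The genotypes overlap except at 9 genes: Map1lc3a, Pink1, Tfeb and Atg3 lie to the right and Ctsd, Pik3r4, Gabarapl1, Becn1 and Rb1cc1 to the left in all 3 heterozygous mice.

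**Figure D2:**
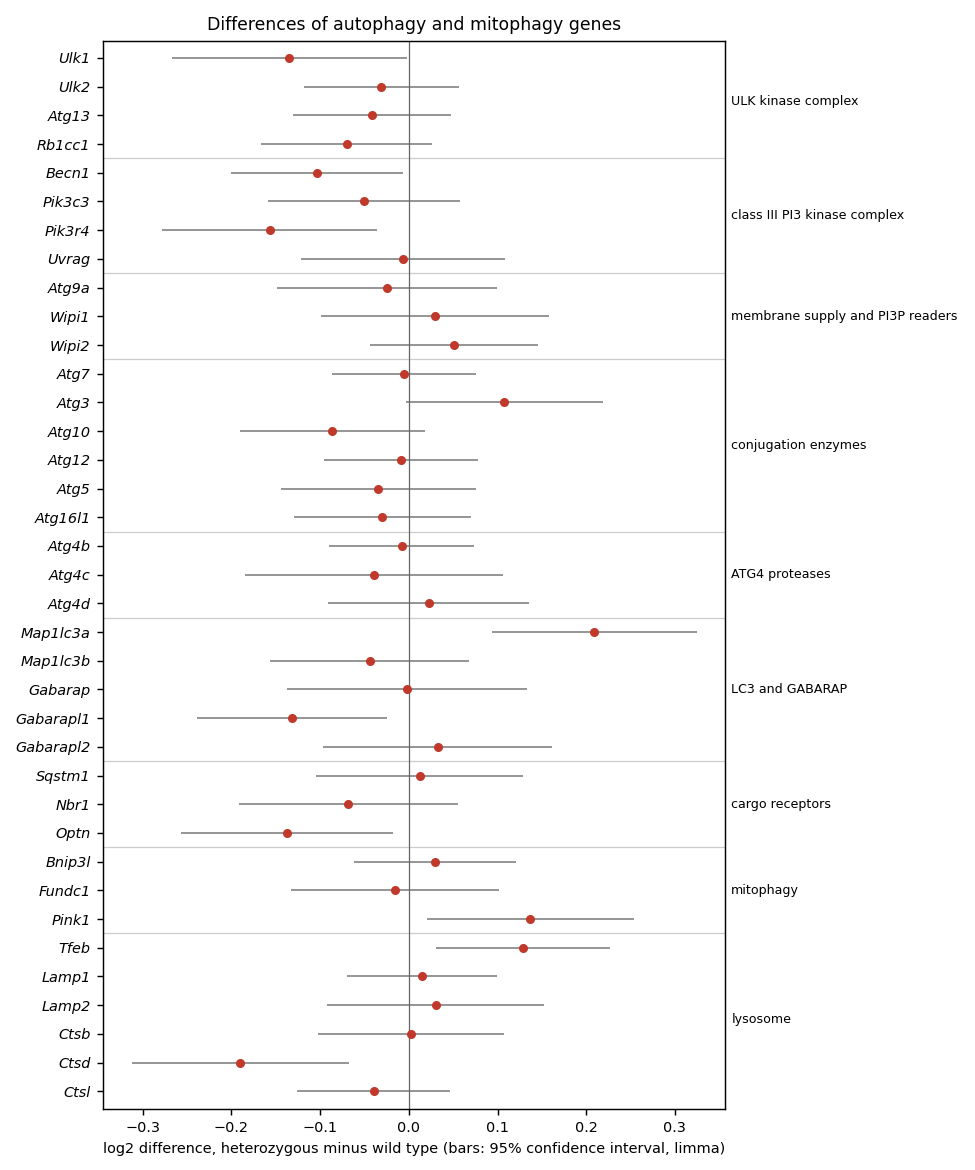
Log2 difference of each gene, heterozygous minus wild type (points), with the 95% confidence interval from limma (bars). All intervals lie between -0.31 and 0.32, and none of the genes passed the test over 11544 probe sets.

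Autophagosome formation starts with the ULK kinase complex, which receives the signals of mTOR and AMPK. None of its 4 genes passed, and all 4 differences were negative, from -0.13 to -0.03. Ulk1, the kinase itself, measured 8.44, 8.25 and 8.29 in heterozygous mice 1, 2 and 3 and 8.42, 8.42 and 8.54 in the wild-type mice. Heterozygous mice 2 and 3 lay below the wild-type mice, and mouse 1 within their range. Its log2 difference was -0.13 ± 0.06 (SE; limma, adjusted p = 0.239). Rb1cc1, the scaffold also called FIP200, measured 8.98, 9.02 and 9.04 in heterozygous mice against 9.05, 9.15 and 9.05 in wild-type mice, a log2 difference of -0.07 ± 0.04 (adjusted p = 0.383). The groups did not overlap, by a margin of about 0.01. Ulk2, the second ULK kinase, and Atg13, the adaptor of the complex, had differences of -0.03 and -0.04.

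The class III PI3 kinase complex marks the forming membrane with the lipid PI3P. Its 4 measured genes also had negative differences, from -0.16 to -0.01, and none passed. Pik3r4, the regulatory subunit VPS15, measured 7.58, 7.41 and 7.40 in heterozygous mice, against 7.65, 7.63 and 7.59 in wild-type mice. All heterozygous mice were lower, with mouse 1 within 0.01 of the lowest wild-type mouse. The log2 difference was -0.16 ± 0.05 (adjusted p = 0.144). Becn1, encoding the Beclin 1 subunit, measured 9.91, 9.95 and 10.00 in heterozygous mice and 10.05, 10.01 and 10.11 in wild-type mice. The groups were adjacent without overlap, with a difference of -0.10 ± 0.04 (adjusted p = 0.218). The catalytic subunit gene Pik3c3 had a difference of -0.05, and Uvrag, whose product joins the complex at endosomes and lysosomes, one of -0.01 (adjusted p = 0.588 and 0.955).

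The genes of membrane supply and of PI3P reading differed by 0.05 or less. Atg9a, the membrane-spanning lipid scramblase that brings vesicles to the site, had a difference of -0.02, and the PI3P-binding genes Wipi1 and Wipi2 had 0.03 and 0.05. Wipi2 measured 7.92, 7.94 and 7.92 in heterozygous mice against 7.83, 7.85 and 7.95 in wild-type mice, and the groups overlapped (adjusted p = 0.528).

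Conjugation enzymes attach ubiquitin-like proteins to the growing membrane: Atg7 is that E1, Atg3 the E2 of the LC3 family and Atg10 the E2 of Atg12, which joins Atg5 and Atg16l1. None of these 6 genes passed, and 5 differences were negative. Atg3 measured 8.11, 8.25 and 8.09 in heterozygous mice and 8.02, 8.08 and 8.04 in wild-type mice. All heterozygous mice were higher, 1 of them clearly so, and the log2 difference was 0.11 ± 0.05 (adjusted p = 0.256). Atg10 measured 8.32, 8.38 and 8.33 in heterozygous mice and 8.50, 8.35 and 8.45 in wild-type mice, with overlap (difference -0.09 ± 0.05, adjusted p = 0.325). Atg7, Atg12, Atg5 and Atg16l1 had differences of -0.01, -0.01, -0.03 and -0.03. The ATG4 proteases prime LC3-like proteins and free them from the membrane again, and their genes Atg4b, Atg4c and Atg4d had differences of -0.01, -0.04 and 0.02, with adjusted p from 0.770 to 0.926.

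The LC3 and GABARAP proteins are what these enzymes conjugate, and they hold cargo receptors at the inner membrane. The 5 genes did not move together: Map1lc3a was on the high side, Gabarapl1 on the low side, and the other 3 were within 0.05 of zero. Map1lc3a measured 11.46, 11.55 and 11.63 in heterozygous mice, against 11.37, 11.36 and 11.29 in wild-type mice. All heterozygous values were higher, and the gap between the groups was about 0.09. The log2 difference was 0.21 ± 0.05, or 15.6% (95% confidence interval 0.09 to 0.32; adjusted p = 0.0662). Map1lc3b, the isoform most used as an autophagosome marker, measured 11.07, 11.18 and 11.24 in heterozygous mice and 11.21, 11.18 and 11.24 in wild-type mice. Its groups overlapped, with a difference of -0.04 ± 0.05 (95% confidence interval -0.16 to 0.07; adjusted p = 0.654).

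Gabarapl1 measured 9.03, 8.92 and 9.03 in heterozygous mice and 9.17, 9.07 and 9.13 in wild-type mice, lower in each heterozygous mouse. The log2 difference was -0.13 ± 0.05 (adjusted p = 0.164). Gabarap and Gabarapl2 had differences of 0.00 and 0.03 (adjusted p = 0.986 and 0.788). To compare the paralogs directly, the log2 signal of one was subtracted from that of the other on each array, which reads only whether the pair changed unequally. This and 3 like contrasts were chosen after the values were seen. Map1lc3a minus Map1lc3b was 0.39, 0.37 and 0.39 in heterozygous mice and 0.16, 0.18 and 0.04 in wild-type mice. The genotypes differed by 0.25, with a two-sided exact permutation p of 0.1, the smallest that 3 mice against 3 can give (0.2 adjusted over the 4 contrasts). Gabarapl1 minus Gabarap differed by -0.13 between the genotypes, with overlapping groups (exact permutation p = 0.3). Cross-hybridisation between these related genes was not assessed.

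**Figure D3:**
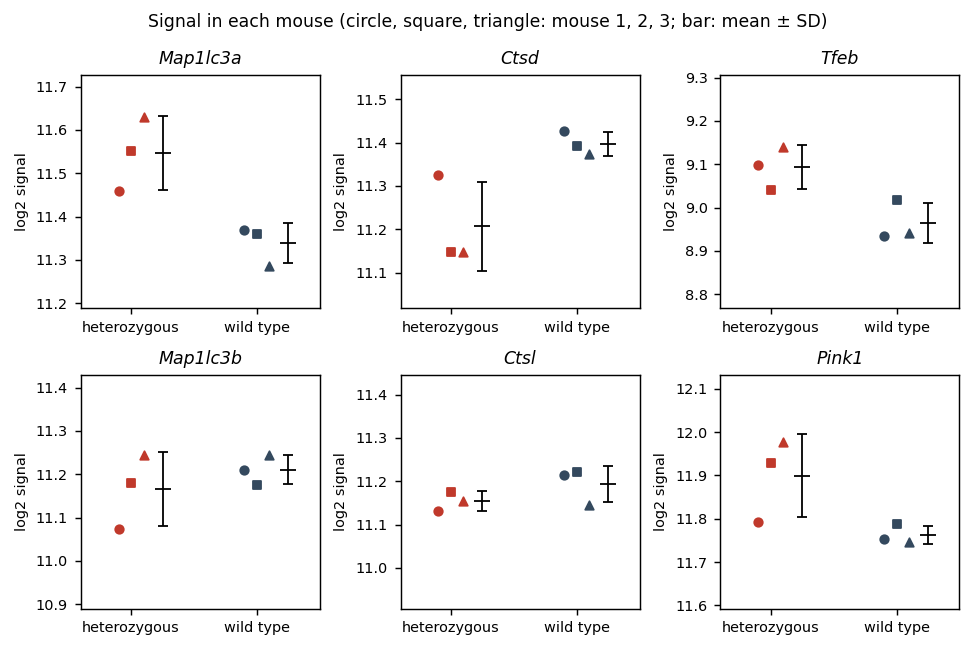
Log2 signal of 6 genes in each heterozygous (left) and wild-type mouse (right), with mean and SD; each panel spans the same height. Map1lc3a, Tfeb and Pink1 are higher and Ctsd lower in all 3 heterozygous mice, while Map1lc3b and Ctsl overlap.

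Cargo receptors link ubiquitinated material to LC3. Sqstm1, encoding p62, measured 11.65, 11.59 and 11.65 in heterozygous mice and 11.62, 11.71 and 11.52 in wild-type mice. The groups overlapped throughout, with a difference of 0.01 ± 0.05 (95% confidence interval -0.10 to 0.13; adjusted p = 0.919). Optn, encoding optineurin, a receptor also used in mitophagy, measured 9.19, 9.27 and 9.31 in heterozygous mice and 9.30, 9.45 and 9.44 in wild-type mice. One pair of values overlapped, by about 0.01, and the difference was -0.14 ± 0.05 (adjusted p = 0.190). Nbr1, a receptor related to p62, measured 9.11, 8.91 and 9.06 in heterozygous mice and 9.11, 9.06 and 9.11 in wild-type mice (difference -0.07 ± 0.05, adjusted p = 0.512).

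Among the mitophagy genes, Pink1 encodes the kinase that accumulates on damaged mitochondria and recruits parkin. It measured 11.79, 11.93 and 11.98 in heterozygous mice, against 11.75, 11.79 and 11.75 in wild-type mice. Heterozygous mice 2 and 3 were clearly higher, and mouse 1 exceeded the highest wild-type mouse by less than 0.01. The log2 difference was 0.14 ± 0.05 (95% confidence interval 0.02 to 0.25; adjusted p = 0.181). Bnip3l, encoding the outer membrane receptor NIX, measured 8.63, 8.69 and 8.74 in heterozygous mice and 8.67, 8.66 and 8.65 in wild-type mice, with overlap (difference 0.03 ± 0.04, adjusted p = 0.718). Fundc1, an outer membrane receptor that responds to hypoxia, had a difference of -0.02 (adjusted p = 0.900). Of 20 further mitophagy genes tested none passed (limma; 3 at an unadjusted p under 0.05, or 15%, against 20.5% of all probe sets; median difference -0.03), and the 2 with the smallest p were the receptor genes Bcl2l13 at -0.13 and Fkbp8 at 0.14 (adjusted p = 0.129 and 0.153).

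At the lysosomal end, Tfeb encodes the transcription factor that drives lysosomal and autophagy genes. It measured 9.10, 9.04 and 9.14 in heterozygous mice, against 8.93, 9.02 and 8.94 in wild-type mice. All heterozygous mice were higher, the closest pair by 0.02, and the log2 difference was 0.13 ± 0.04 (adjusted p = 0.140). Tfeb minus its relative Tfe3 on each array was 1.38, 1.27 and 1.35 in heterozygous mice and 1.17, 1.19 and 1.17 in wild-type mice, a change of 0.15 without overlap (exact permutation p = 0.1; 0.2 adjusted over the 4 contrasts). Ctsd, the aspartyl protease cathepsin D, measured 11.33, 11.15 and 11.15 in heterozygous mice, against 11.43, 11.39 and 11.37 in wild-type mice. All heterozygous mice were lower, mouse 1 by the smallest margin. The log2 difference was -0.19 ± 0.05, or -12.3% (95% confidence interval -0.31 to -0.07; adjusted p = 0.0961).

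The cysteine protease genes Ctsl and Ctsb and the membrane protein genes Lamp1 and Lamp2 differed by 0.04 or less. Ctsl, induced in many forms of muscle atrophy, measured 11.13, 11.18 and 11.16 in heterozygous mice and 11.21, 11.22 and 11.15 in wild-type mice (difference -0.04 ± 0.04, adjusted p = 0.597). Lamp2, whose loss causes the autophagic vacuolar myopathy Danon disease in humans, measured 9.32, 9.40 and 9.49 in heterozygous mice and 9.39, 9.42 and 9.31 in wild-type mice (0.03 ± 0.05, adjusted p = 0.793). Both genes had overlapping groups. Ctsd minus Ctsl changed by -0.15, with overlap (exact permutation p = 0.2). Lysosomal genes are also expressed by macrophages, whose markers are given above, and the part of those cells in these values was not tested.

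TFEB binds palindromic words of the E-box type, so the 250 bases before the start of each gene were searched in the RefSeq promoter table (GRCm38.p6), which matched 29 of the 37 genes with 33 windows. No window was found for Map1lc3a, Rb1cc1, Becn1, Atg16l1, Pik3c3, Atg12, Bnip3l and Ctsb, so these genes were not searched. The E-box CACGTG was present in 6 of 33 member windows (18.2%) and in 6.02% of all 32851 windows. The longer word TCACGTGA, which contains the E-box, was in 2 member windows (6.06%), those of Ctsd and Atg3, against 0.785% of all. Both words read the same on either strand. The FoxO word GTAAACA was searched on both strands and was in 0 member windows, against 3.17% of all. The windows with the longer word and the one with most E-boxes, that of Lamp1 with 4, are shown 5′ to 3′. The 3 genes carry the same kind of word, which is in capitals. Ctsd lies on the minus strand, chr7:142387828-142388077, and Atg3 and Lamp1 on the plus strand, chr16:45158579-45158828 and chr8:13158911-13159160.
Ctsd: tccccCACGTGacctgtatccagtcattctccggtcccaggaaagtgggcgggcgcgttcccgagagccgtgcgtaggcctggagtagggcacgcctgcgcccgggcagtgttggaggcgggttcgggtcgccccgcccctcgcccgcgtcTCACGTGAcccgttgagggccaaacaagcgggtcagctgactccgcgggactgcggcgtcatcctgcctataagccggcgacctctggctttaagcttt
Atg3: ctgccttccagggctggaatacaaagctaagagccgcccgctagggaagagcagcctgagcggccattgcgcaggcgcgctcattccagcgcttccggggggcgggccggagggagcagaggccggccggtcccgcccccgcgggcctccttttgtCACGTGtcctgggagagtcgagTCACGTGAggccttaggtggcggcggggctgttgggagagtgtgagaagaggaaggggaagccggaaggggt
Lamp1: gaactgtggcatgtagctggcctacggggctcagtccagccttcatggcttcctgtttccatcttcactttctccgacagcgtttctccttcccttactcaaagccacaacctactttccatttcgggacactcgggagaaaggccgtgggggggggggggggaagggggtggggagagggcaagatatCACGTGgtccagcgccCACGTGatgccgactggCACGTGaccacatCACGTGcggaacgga
The log2 differences were -0.19 for Ctsd, 0.11 for Atg3 and 0.01 for Lamp1, and none passed (limma, adjusted p = 0.0961, 0.256 and 0.863). A link between these words and the differences was not tested. The remaining members with an E-box were Atg7, Atg5 and Ctsl, at -0.01, -0.03 and -0.04. A word in a window is a description and does not show that a factor binds there.

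The 6 wider lists held 6 calls, 4 of them among regulators upstream of autophagy. Of 25 such genes tested, 3 rose, 1 fell and 21 did not pass, or 16.0% called against 3.11% of all probe sets, with a median difference of -0.02. This list was chosen with earlier results of these data known, so its share of calls describes the list and is no measure of enrichment. Ddit4, an inhibitor of mTORC1, measured 9.91, 10.66 and 11.19 in heterozygous mice and 8.04, 8.65 and 8.35 in wild-type mice. Every heterozygous mouse was over 1 log2 unit above every wild-type mouse (difference 2.24 ± 0.29, adjusted p = 0.0104). Depp1, a FoxO target, measured 8.90, 9.32 and 9.82 in heterozygous mice against 8.38, 8.32 and 8.36 in wild-type mice. It rose by 0.99 ± 0.19 (adjusted p = 0.0323), and both Depp1 and Ddit4 were lowest in mouse 1 and highest in mouse 3 among the heterozygous mice.

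Foxo1, encoding a transcription factor that drives autophagy and atrophy genes, measured 8.05, 7.86 and 7.98 in heterozygous mice and 7.68, 7.65 and 7.70 in wild-type mice. It rose by 0.28 ± 0.05 (adjusted p = 0.0310). Flcn, encoding folliculin, through which amino acids lead mTORC1 to keep TFEB and TFE3 out of the nucleus, measured 8.71, 8.68 and 8.76 in heterozygous mice and 8.91, 8.98 and 9.04 in wild-type mice. It fell by 0.26 ± 0.05 (adjusted p = 0.0267). Among these 4 regulators the groups did not overlap, but they were named because they passed, so this adds nothing to their calls. Of the 25 regulators tested, 8 had no overlap, against 26.3% of all probe sets. Ddit4 passed in all 6 fits that left out a mouse. Depp1 lost its call without heterozygous mouse 2 or any wild-type mouse (adjusted p up to 0.0980), and Foxo1 without heterozygous mouse 3 or any wild-type mouse (up to 0.103). Flcn lost it without heterozygous mouse 2 or 3 or wild-type mouse 2 or 3 (up to 0.0879). The kinase genes Mtor, Prkaa1 and Prkaa2 had differences of -0.06, -0.11 and -0.08 and did not pass (adjusted p = 0.329, 0.326 and 0.369).

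Among 25 other lysosomal hydrolase and membrane protein genes, 1 fell, none rose and 24 did not pass (4% called, against 3.11% of all probe sets; median difference -0.01). The fall was Npc1, which exports cholesterol from the lysosome. It measured 9.05, 8.70 and 8.80 in heterozygous mice, against 9.34, 9.45 and 9.46 in wild-type mice, and each heterozygous mouse was lower by a wide margin. It was 1.48-fold lower (log2 difference -0.56 ± 0.08, adjusted p = 0.0138), and the call was lost without heterozygous mouse 3, wild-type mouse 2 or wild-type mouse 3 (adjusted p up to 0.0646). With the replicate number as a block 2 genes of this list passed, the second being Scarb2, a lysosomal membrane protein (difference -0.19, adjusted p = 0.0936, and 0.0402 with the block). Without heterozygous mouse 1 there were also 2, the second being Gaa, the acid alpha-glucosidase that breaks down glycogen (-0.25, adjusted p = 0.0349). Npc2, the soluble partner of Npc1, had a difference of 0.15 in the other direction and did not pass (adjusted p = 0.136).

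Of 13 subunit genes of the vacuolar proton pump, which acidifies the lysosome, Atp6v1d fell and 12 did not pass. The share called was 7.69%, against 3.11% of all probe sets, and the median difference of the pump genes was -0.01. Atp6v1d, a subunit of the pump's cytosolic sector, measured 10.29, 10.26 and 10.39 in heterozygous mice and 10.56, 10.54 and 10.54 in wild-type mice, without overlap (difference -0.23 ± 0.04, adjusted p = 0.0317). The call was lost without heterozygous mouse 2 or any wild-type mouse (adjusted p up to 0.0981). None of 13 further genes of initiation and membrane supply passed (limma, median -0.02). An unadjusted p under 0.05 was reached by 2, or 15.4%, against 20.5% of all probe sets. Trp53inp1 at 0.17 and Ambra1 at -0.10 had the smallest p (adjusted p = 0.168 and 0.220). Without heterozygous mouse 1 Trp53inp1 passed (0.24, adjusted p = 0.0292). None of 16 genes of autophagosome fusion with the lysosome passed (limma, median -0.04). Of these, 1 had an unadjusted p under 0.05, or 6.25%, against 20.5% of all probe sets. Snap29, a SNARE of that fusion, and Plekhm2 were both at -0.10 (adjusted p = 0.180 and 0.277).

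**Figure D4:**
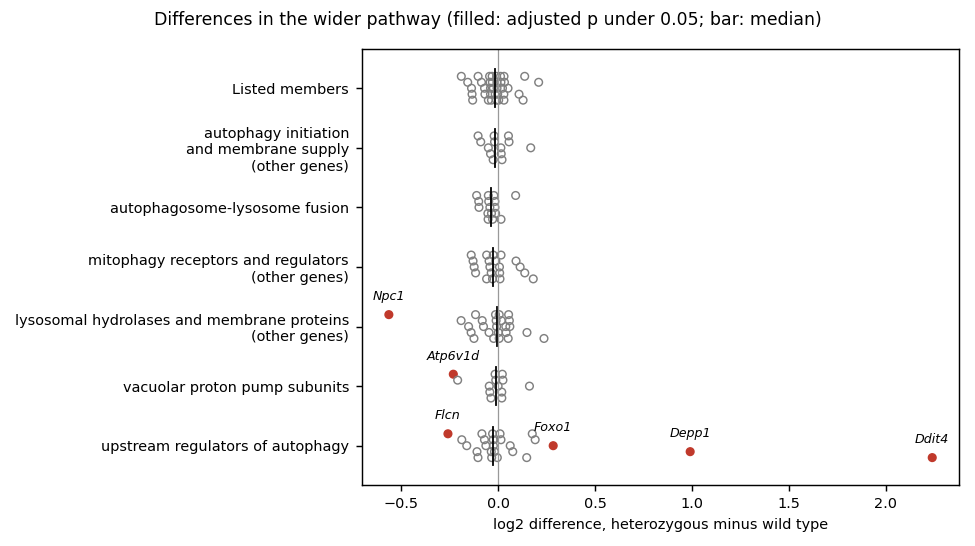
Log2 difference, heterozygous minus wild type (x axis), of each tested gene in the 37 listed members and in 6 wider lists; filled points passed an adjusted p of 0.05 and the bar is the median. Named points are Npc1, Atp6v1d and Flcn below zero and Foxo1, Depp1 and Ddit4 above it, and the members hold no filled point.

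Among the fits that left out 1 mouse, only the fit without heterozygous mouse 1 gave member calls. Without heterozygous mouse 1, 4 of the 37 members passed (10.8%), against 4.36% of all probe sets in that fit. Map1lc3a and Pink1 were higher, by 0.25 and 0.19 (limma, adjusted p = 0.0293 and 0.0448), and Ctsd and Pik3r4 were lower, at -0.25 and -0.21 (adjusted p = 0.0197 and 0.0305). For each of these 4 genes mouse 1 was the heterozygous mouse closest to the wild-type values. Leaving out any other mouse gave 0 member calls. In those fits the share of all probe sets called was 1.05% and 0.728% without heterozygous mouse 2 and 3, and 0.84%, 0.892% and 1.24% without wild-type mouse 1, 2 and 3. The lone call with array weights was Map1lc3a (adjusted p = 0.0403). With the replicate number as a block no member passed, while 4.95% of all probe sets did, and the adjusted p was 0.0743 for Map1lc3a and 0.0551 for Ctsd.

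**Figure D5:**
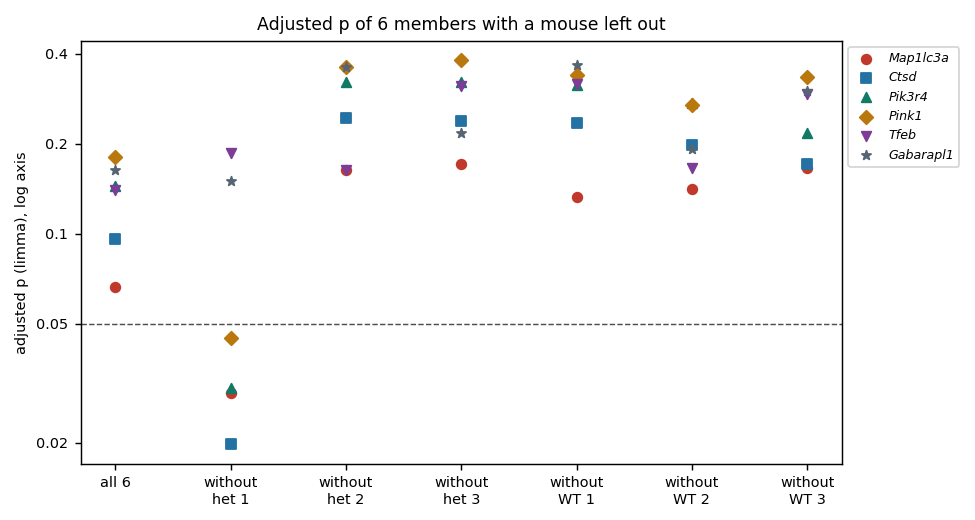
Adjusted p from limma (log axis) of 6 members in the fit of all mice and in fits that leave out 1 mouse (het: heterozygous, WT: wild type); the dashed line is at 0.05. Map1lc3a, Ctsd, Pik3r4 and Pink1 lie below the line in the fit without heterozygous mouse 1 and above it in the other fits.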

How the data were processed

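Muscle RNA was extracted with Trizol and column-purified, and biotinylated cRNA was made for Affymetrix arrays, per the labels' protocols. The authors deposited log2 values, 1 column per array, with identical sorted columns, as quantile normalization leaves them. The sources used here do not say how probes were summarised or corrected for background. Members were matched by row name to RefSeq (GRCm38.p6), and other genes were named through the platform annotation, whose Entrez identifier equals the row name for 15250 of 15270 probe sets. Probe sets with a mean above the 30th percentile (6.74) were tested, 11544 in all.

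Heterozygous minus wild type was fitted with limma 3.58.1 in R 4.3.3 (lmFit, eBayes), with Benjamini-Hochberg adjustment over all tested probe sets. The fit was also run on simulated data with planted differences. The share of these it recovered is not given here, so the power for small differences is left unstated. Errors are limma's SE unless named. The small number of arrays limits precision. The members and lists were chosen with earlier results of these data known. Per-mouse values were given for the 14 members with the smallest p and for textbook readouts (Map1lc3b, Sqstm1, Bnip3l, Ctsl and Lamp2 were added), and other lists name up to 4 genes that passed, or else the 2 with the smallest p. Mtor, Prkaa1, Prkaa2, Scarb2, Gaa, Npc2 and the cell markers were named after their values were seen. Same-numbered mice deviated together from their group means (r from 0.13 to 0.23, each above the limit of 0.1), which is the only ground for pairing, since the labels name no shared litter or day. Alternatives were cyclic loess, no filter, a filter at the 50th percentile, an intensity trend, array weights, the replicate block and leaving out each mouse.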

Additional observations from a re-analysis of the deposited data

How the results depend on the processing

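No member passed with cyclic loess, with no filter, with the filter at the 50th percentile, with an intensity trend or with the replicate block, and 1 passed with array weights. Leaving out a mouse gave 0 to 4 member calls. The median difference of the members was -0.015 with all mice, -0.0060 with cyclic loess and between -0.0383 and -0.0063 in the 6 fits on 5 mice. Its lowest value came without wild-type mouse 1, a shift larger than the SD of 0.011 between mice of the members' median. In the wider lists, leaving out a mouse gave 0 to 1 calls among other initiation genes, 0 to 2 among lysosomal genes, 0 to 1 among proton pump genes and 1 to 4 among upstream regulators. The replicate block raised the lysosomal count to 2 and changed no other count of the members or wider lists; its calls among cell markers are given with those markers. The cause of these shifts was not tested. Fits that left out a mouse also held fewer mice, and the part of that was not tested either.

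Signs of members near zero changed. With cyclic loess Gabarap was at 0.0017, and with array weights Gabarap was at 0.017, Sqstm1 at -0.00040 and Ctsb at -0.0031. When a mouse was left out, the log2 differences of 16 members spanned zero: Uvrag -0.055 to 0.038, Atg9a -0.069 to 0.018, Wipi1 -0.032 to 0.061, Atg7 -0.016 to 0.0086, Atg12 -0.026 to 0.018, Atg5 -0.065 to 0.016, Atg4b -0.024 to 0.010, Atg4c -0.10 to 0.024, Atg4d -0.019 to 0.065, Map1lc3b -0.083 to 0.0017, Gabarap -0.041 to 0.054, Gabarapl2 -0.014 to 0.067, Sqstm1 -0.034 to 0.057, Fundc1 -0.057 to 0.033, Lamp2 -0.014 to 0.073 and Ctsb -0.034 to 0.029. The other 21 members kept their sign under all 12 alternatives. Member means lay at the 52.7th percentile of gene probe sets or higher, and 3 mice per group limited the precision. Protein, lipidation and autophagic flux were not measured.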
